A study of Mus musculus with 8 samples.

Results

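The respiratory chain genes of 4T1 cells were described from both expression tables, by their symbols alone: Nduf, Uqcr, Atp5 and Cox4 to Cox8 genes, Sdha to Sdhd, Cyc1 and Cycs, and the protein genes of mitochondrial DNA. This rule took 112 of the 28712 genes listed, 99 encoded in the nucleus and 13 in the mitochondrion, and 109 of them stood in both tables. 4T1 is a mouse mammary tumour line that grows as triple-negative breast cancer. The tables held 3 groups of RNA-seq libraries. The first received sdAb#07.81, a single-domain antibody directed at the stress protein NUPR1, at 0.5 µg/ml for 48 h. The second received sdAb-Con, the control single-domain antibody, at the same dose for 48 h, and the last received sdAb#07.81 at that dose for 24 h. As the study describes them, both antibody proteins were purified from HEK293F cells as fusions with a Tat peptide for cell entry, a cOdc1 degron and Flag and His tags, so the control protein carried these parts too. All cells were kept at 1% O2 and 5% CO2. Each group had 2 libraries of a single cell line, and nothing in the labels says that they came from separate cultures, so the p-values measure only the spread between these libraries. A further control group of 2 samples was not analysed here.

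The respiratory chain passes electrons from NADH (complex I) and succinate (complex II) to ubiquinone, then through complex III and cytochrome c to oxygen at complex IV, and complex V, the ATP synthase, uses the proton gradient that builds up. Complexes I, III, IV and V are mosaics of nuclear and mitochondrial gene products, while complex II is nuclear only. Nuclear subunit genes are transcribed by RNA polymerase II, many of them with the transcription factors NRF1 and GABP, and the mitochondrial genes are cut from long transcripts made by a separate polymerase.

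The NRF1 motif was looked for in the RefSeq promoters of the nuclear members (mouse build GRCm38.p6, 250 bases before to 50 after the annotated start), as a GCGC box, the letters AN (N being any base) and a second GCGC box, or its reverse complement with NT between the boxes. Of the 99 nuclear members 77 had a promoter in the reference, and 19 of those (24.7%) held the motif, against 1402 of all 27025 promoters (5.19%). Sdha, the flavoprotein of complex II, had the most matches before its start among the 3 promoters shown. Cox6a1, a small subunit of complex IV, had 2, and Cox7a2l, the member that differed most clearly between 48 h and 24 h, had none. The 250 bases before each start are given 5′ to 3′ on the gene's strand, with the motif in capitals, for chr13:74350241-74350490 (minus strand), chr5:115348959-115349208 (minus strand) and chr17:83514334-83514583 (minus strand).
Sdha: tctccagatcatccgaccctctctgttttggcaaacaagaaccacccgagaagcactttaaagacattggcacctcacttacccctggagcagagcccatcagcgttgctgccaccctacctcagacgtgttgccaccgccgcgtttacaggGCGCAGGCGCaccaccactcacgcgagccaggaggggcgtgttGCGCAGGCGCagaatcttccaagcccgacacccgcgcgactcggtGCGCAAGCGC
Cox6a1: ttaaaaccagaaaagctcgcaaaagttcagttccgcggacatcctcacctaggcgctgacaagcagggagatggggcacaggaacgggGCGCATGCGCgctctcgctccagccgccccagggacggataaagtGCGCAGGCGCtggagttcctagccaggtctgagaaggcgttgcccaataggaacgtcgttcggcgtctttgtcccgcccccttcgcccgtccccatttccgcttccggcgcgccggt
Cox7a2l: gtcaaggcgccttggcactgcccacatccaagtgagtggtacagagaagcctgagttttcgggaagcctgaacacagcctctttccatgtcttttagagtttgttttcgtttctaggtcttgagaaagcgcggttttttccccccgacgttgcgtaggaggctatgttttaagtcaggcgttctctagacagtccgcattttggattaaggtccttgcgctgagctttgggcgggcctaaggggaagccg
The matches of Sdha began 98, 55 and 10 bases before the start, and those of Cox6a1 162 and 117 bases before it. These are matches of letters, not measured binding. At 48 h the 19 members with the motif had a median log2 difference of -0.33 between sdAb#07.81 and sdAb-Con, and the 55 tested members whose promoter lacked it had -0.41.

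The recovered genes held 15305516 to 18302373 reads per library. This leaves out 20 genes that were not recovered, among them very abundant ones such as mt-Co1, Eef1a1 and Hspa5. Beside the values below stand normalised reads, which are reads divided by the library's scaling factor, and log2 differences between groups with their standard error (SE). Of the members, 102 had a mean of at least 10 reads and were tested, 8 fell below that mean, and 2 (mt-Co1 and mt-Nd5) have authors' means only. Epithelial markers led by Cdh1 summed to 45959 to 57205 normalised reads in every library, and endothelial markers to at most 13.7. Fibroblast markers summed to 918 to 1353, and Esr1, Pgr and Erbb2, whose absence defines triple-negative tumours, to 957 to 1147, with Erbb2 the highest of them. The 5 immune markers found of 6 listed, of which Cd68 was highest and none was at 0 throughout, summed to 1039 and 653 in sdAb-Con (48 h), 504 and 658 in sdAb#07.81 (48 h), and 246 and 277 at 24 h, and their part in the results was not tested. Nupr1 transcript, from the gene whose protein the antibody binds, stood at 3550 and 2977 normalised reads with sdAb-Con (48 h), 2898 and 2898 with sdAb#07.81 (48 h), and 2121 and 1545 at 24 h. It was not called between the antibodies at 48 h (log2 difference -0.17 ± 0.13, adjusted p = 0.453, limma) and was higher at 48 h than at 24 h with sdAb#07.81 (log2 difference 0.68 ± 0.13 (SE), adjusted p = 0.000427). In these bulk samples fewer cells and less RNA per cell cannot be told apart.

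The median level per length was higher for mitochondrial than for nuclear genes in complexes I and III, while the order in complexes IV and V depended on how it was counted. In the table against sdAb-Con (48 h), the 13 mitochondrial members made up 2.55% of the summed authors' means and the 96 nuclear members listed there 0.834%. Set per kilobase of the longest annotated transcript and per 1000000 normalised reads, the 43 nuclear genes set in complex I by their symbols had a median level of 33.6 and its 7 mitochondrial subunits 1061. The 43 hold Ndufa4, known as a subunit of complex IV, its relative Ndufa4l2, Ndufb11b, with at most 1 read in any library, and Ndufb4c, whose level is uncertain because 100% of its 100-base words occur in other genes, chiefly Ndufb4. With Ndufa4 and Ndufa4l2 in complex IV the nuclear median levels of both complexes stayed at 33.6 and 45.1. The median was 45.1 for the 17 nuclear genes of complex IV and 92.7 for its 3 mitochondrial ones, and in complex V it was 83.0 for the 17 nuclear genes and 59.1 for the 2 mitochondrial ones. With the reads of the nuclear copy that shares most of a mitochondrial gene's words added to it, the mitochondrial medians were 199.7 in complex IV and 177 in complex V, where the order thus turned. With the median transcript length in place of the longest, the nuclear median of complex IV was 113.4, above the mitochondrial one. In complex III the 9 nuclear genes had a median of 75.3 against 2175 for mt-Cytb, cytochrome b. The 4 genes of complex II had 70.4 and the 8 assembly factors of complex I (Ndufaf genes) 7.38. The highest nuclear genes on this scale, named here after their values were seen, were Atp5b, the catalytic beta subunit of ATP synthase, at 738, Cox4i1, the main isoform of complex IV subunit 4, at 399.7, and Ndufb9 of complex I at 345.

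mt-Co1, the catalytic core of complex IV, had the highest authors' mean of all members, 281365 normalised reads in the table against sdAb-Con (48 h), or 10190 on the scale per length. mt-Co2 (92.7), mt-Co3 (68.5) and mt-Atp6 (86.4) stood far below it on the same scale, and these genes lie near each other on the mitochondrial DNA, at MT:7013-7696, MT:8607-9390 and MT:7927-8607 in the tables' coordinates. mt-Nd3 (10.0) and mt-Nd4l (10.8) were lower still, below the nuclear median of complex I. In these low genes 97.6% to 99.9% of the 100-base words of the transcript occur in other annotated genes as well, chiefly copies of mitochondrial DNA on chromosome 1 such as Gm28661 (mt-Co2), Gm28437 (mt-Co3) and Gm10925 (mt-Atp6). Those copies held reads too: 2271 to 3378 per library for Gm10925, where mt-Atp6 had 836 to 1187. By contrast 30.8% of the words of mt-Co1 and none of those of mt-Nd1, mt-Nd5, mt-Nd6, mt-Cytb and mt-Atp8 were shared. mt-Atp8 (MT:7766-7969), a short gene of 204 bases, was low (31.8) with none of its 100-base words in other annotated genes. Only annotated transcripts were searched, and by its coordinates mt-Atp8 overlaps mt-Atp6, so shared reads are not excluded. Counting can split or drop reads that match 2 genes. The levels of mt-Co2, mt-Co3, mt-Atp6, mt-Atp8, mt-Nd3 and mt-Nd4l, and in part of mt-Nd4 (60.8% shared), are therefore uncertain.

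**Figure D1:**
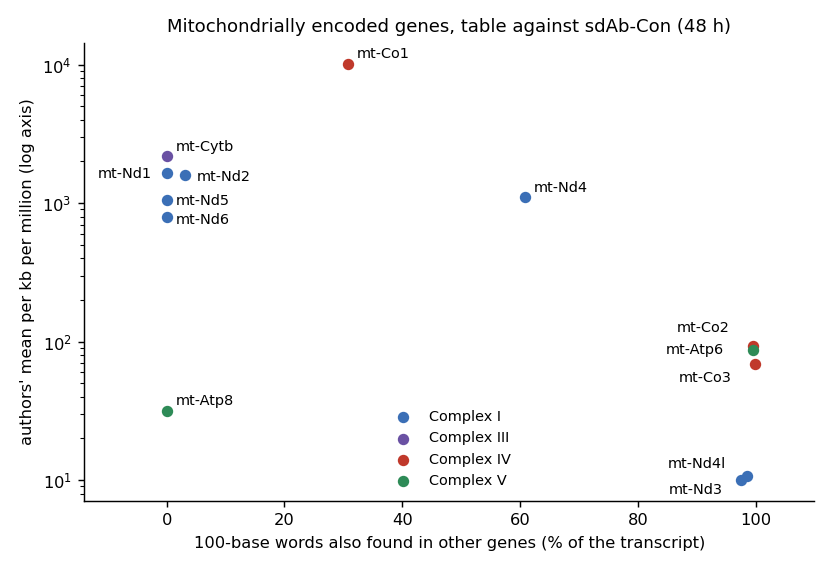
Level of the 13 mitochondrially encoded genes in the authors' means of the table against sdAb-Con (48 h), per kilobase of transcript and 1000000 normalised reads on a log axis, against the share of the transcript's 100-base words that occur in other genes; colour gives the complex. mt-Co1 is highest at 10190, and the 5 genes with 97.6% or more of their words shared lie between 10.0 and 92.7.

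Several members belong to pairs of isoforms of which 1 is the usual form and the other is known from muscle, lung or testis. In 4T1 cells the usual form carried nearly all reads of each pair described here. Cox4i1 had 4060 to 6569 normalised reads per library and Cox4i2 at most 2 reads in any library. Cox8b, Cox6b2 and Cox7a1 had at most 3 reads in any library beside 846 to 1646 normalised reads of Cox8a, 1332 to 1850 of Cox6b1 and 683 to 1204 of Cox7a2. Ndufa4l2, the hypoxia-linked relative of Ndufa4, had 0 to 7 reads per library in these cells kept at 1% O2, while Ndufa4 had 989 to 1598 normalised reads. Of these second forms Cox6a2, the muscle form of subunit 6a, had enough reads to be tested beside its partner Cox6a1. Cox6c2, with 5 to 26 reads per library, and Ndufs6b, with 9 to 20, were tested too, beside Cox6c and Ndufs6, and are named here after their values were seen. Cox6a2 had 50 and 48 reads with sdAb-Con (48 h), 20 and 22 with sdAb#07.81 (48 h), and 1 and 1 at 24 h. The groups did not overlap, and the ratio of 48 h to 24 h with sdAb#07.81 was 23.9 (95% interval for counting error only, 6.23 to 204, exact Clopper-Pearson).

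Between sdAb#07.81 and sdAb-Con at 48 h some nuclear encoded members were lower, a count that fell to 3 or fewer without some single libraries, although the median difference of the nuclear members stayed about as large without either control library, and to 0 with the trend on length and GC content removed. Of the 102 members tested 26 were lower and 0 higher at an adjusted p under 0.05 (limma), all 26 of them nuclear, where 3.71% of all 13957 genes tested were called lower and 6.41% higher. The median log2 difference was -0.37 over the 91 nuclear members, 88 of which had a negative value, and -0.02 over all genes. In 79 of the 102 members both sdAb#07.81 libraries lay below both sdAb-Con libraries, against 31.0% of all genes. The size of the change was modest: apart from Cox6a2, the members called had log2 differences of -0.41 to -0.86.

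The lower calls were spread over the complexes. They numbered 9 of 39 tested nuclear genes in complex I, 1 of 8 assembly factors, 2 of 9 in complex III, 6 of 13 in complex IV and 8 of 17 in complex V, with 0 of 4 in complex II and Cycs not called. The medians were close to each other, from -0.24 in complex II over -0.34 in complex V and -0.37 in complex I to -0.42 in complex III and -0.45 in complex IV. Summed over the 91 nuclear members, the libraries held 176012 and 168195 normalised reads with sdAb-Con (48 h) and 122114 and 147950 with sdAb#07.81 (48 h). The sdAb#07.81 libraries thus lay further from each other than the higher of them lay from the lower control library. Summed over the 11 mitochondrial members, library 1 of sdAb#07.81 (48 h) was the higher one, with 151869 against 115742 normalised reads, and the control libraries held 144592 and 165995.

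In complex V, Atp5d, the delta subunit of the ATP synthase central stalk, had 2278 and 2282 normalised reads with sdAb-Con and 1360 and 1646 with sdAb#07.81 (log2 difference -0.61 ± 0.12 (SE), adjusted p = 0.00353). Atp5e, the epsilon subunit of the same stalk, had 1044 and 1003 against 411 and 784 (-0.86 ± 0.19, adjusted p = 0.00773). The groups did not overlap for either gene, but the sdAb#07.81 libraries of Atp5e lay further apart than the gap between the groups. Atp5j2, the membrane subunit f, was also lower (-0.50 ± 0.14, adjusted p = 0.032). Without sdAb#07.81 (48 h) library 1 the log2 differences were smaller, at -0.48 for Atp5d, -0.39 for Atp5e and -0.26 for Atp5j2.

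In complex IV, Cox8a, a small structural subunit, had 1521 and 1646 normalised reads with sdAb-Con and 901 and 1188 with sdAb#07.81 (-0.61 ± 0.14, adjusted p = 0.00749). Cox6a1 had 1660 and 1791 against 1021 and 1313 (-0.58 ± 0.13, adjusted p = 0.00749). Both genes had every sdAb#07.81 library below every control library. Cox4i1 (-0.46 ± 0.12, adjusted p = 0.0175) and Cox7a2l (-0.41 ± 0.12, adjusted p = 0.0316) were lower, and so was Cox6a2 (-1.11 ± 0.35, adjusted p = 0.0472). Cox6b1, which bridges the complex IV dimer, had -0.24 ± 0.13 and was not called (adjusted p = 0.265), nor was Cox7a2 (-0.46 ± 0.17, adjusted p = 0.0839).

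In complex I, Ndufa2, an accessory subunit of the matrix arm, had 541 and 500 normalised reads with sdAb-Con and 263 and 393 with sdAb#07.81 (-0.70 ± 0.17, adjusted p = 0.0126). Ndufb9, an accessory subunit of the membrane arm, had 5286 and 5307 against 3211 and 4105 (-0.55 ± 0.12, adjusted p = 0.00643), with 17.0% of its words found in other genes too. The assembly factor Ndufaf3 had 188 and 185 against 92.1 and 124 (-0.81 ± 0.21, adjusted p = 0.018). In each of these 3 genes the control libraries lay close together and above both others. Ndufs1, the large iron-sulfur subunit that takes electrons in the matrix arm, was 1 of 3 nuclear members without a negative value (0.00 ± 0.11, adjusted p = 0.991), and is named here after its value was seen.

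In complex III, Cyc1, cytochrome c1, had 1134 and 1231 normalised reads with sdAb-Con and 683 and 873 with sdAb#07.81 (-0.61 ± 0.15, adjusted p = 0.0118). Uqcrfs1, the Rieske iron-sulfur protein, had 1952 and 1965 against 1282 and 1666 (-0.42 ± 0.12, adjusted p = 0.0345). Complex II had negative values throughout, without a call: Sdha -0.24, Sdhb -0.32, Sdhc -0.23 and Sdhd -0.23, with adjusted p from 0.0898 to 0.358. Cycs, the soluble electron carrier cytochrome c, had -0.27 ± 0.17 (adjusted p = 0.333).

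None of the 11 mitochondrial members tested was called between sdAb#07.81 and sdAb-Con at 48 h by limma (adjusted p from 0.0612 to 0.916), and their median log2 difference was -0.24. This median was -0.37 without sdAb-Con (48 h) library 1 and -0.09 without sdAb-Con (48 h) library 2. It was -0.41 without sdAb#07.81 (48 h) library 1 and -0.08 without sdAb#07.81 (48 h) library 2. By complex the mitochondrial and nuclear medians were -0.15 and -0.37 in complex I, -0.34 and -0.45 in complex IV, and -0.31 and -0.34 in complex V. mt-Cytb had 48012 and 55141 normalised reads with sdAb-Con and 44584 and 35471 with sdAb#07.81 (-0.37 ± 0.13, adjusted p = 0.0674). mt-Nd1, a core subunit of the complex I membrane arm, had 28363 and 34861 against 28992 and 24492 (-0.24 ± 0.12, adjusted p = 0.221), and mt-Nd6, from the light strand, had 6651 and 7571 against 10449 and 5809 (0.13 ± 0.18, adjusted p = 0.678). The groups of mt-Nd1 and mt-Nd6 overlapped, and mt-Nd6 alone had a positive value. Whether nuclear and mitochondrial members differed from each other in this comparison was not tested.

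**Figure D2:**
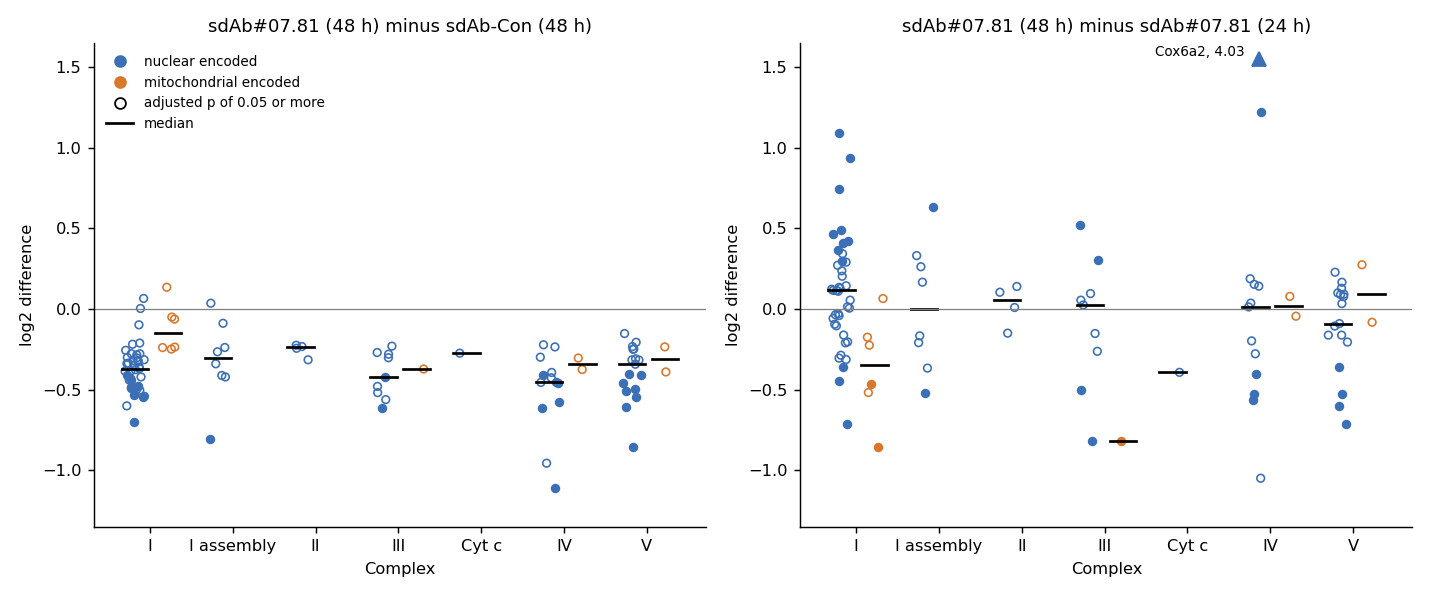
log2 differences of the 102 tested members by complex, on the left for sdAb#07.81 (48 h) minus sdAb-Con (48 h) and on the right for sdAb#07.81 (48 h) minus sdAb#07.81 (24 h); blue points are nuclear and orange points mitochondrially encoded genes, filled points passed an adjusted p of 0.05, black bars are medians, and the triangle on the right stands for Cox6a2 (4.03), above the axis. On the left 98 of 102 members lie below 0, and on the right 54 lie above 0 and 48 below.

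The count of 26 moved with single libraries and with transcript length. Without sdAb#07.81 (48 h) library 1 it was 1 (a mitochondrial member, with medians of -0.22 over the nuclear and -0.41 over the mitochondrial members), without sdAb-Con (48 h) library 1 it was 3, and without sdAb-Con (48 h) library 2 it was 1. Without these control libraries the nuclear medians were -0.33 and -0.40, with 90 and 86 of 91 values negative, and the genes called among all fell from 1413 to 408 and 367, so calls were lost while the differences stayed about as large. The count was 41 without sdAb#07.81 (48 h) library 2 or without either 24 h library. None of the 13 named genes called lower kept its call under all alternatives, although each kept its sign. Without sdAb#07.81 (48 h) library 1 each of them had a smaller difference, from -0.24 for Uqcrfs1 to -1.01 for Cox6a2. Across all genes the log2 difference was higher the longer the transcript (Spearman's rho 0.449 over 13795 genes that share these libraries), and the 2374 genes shorter than 1500 bases had a median of -0.26. The nuclear members are short, with a median of 1141 bases against 3135 for all genes. With the trend on length and GC content removed, 0 members were called lower by limma (41 at an unadjusted p under 0.05) against 161 of all 13795 genes called lower (1.17%) and 11.2% of all genes lower at an unadjusted p under 0.05. The median over the nuclear members was then -0.24, with 88 of 91 negative, and -0.37 over the mitochondrial ones, with 11 of 11 negative, against -0.03 over all genes.

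**Figure D3:**
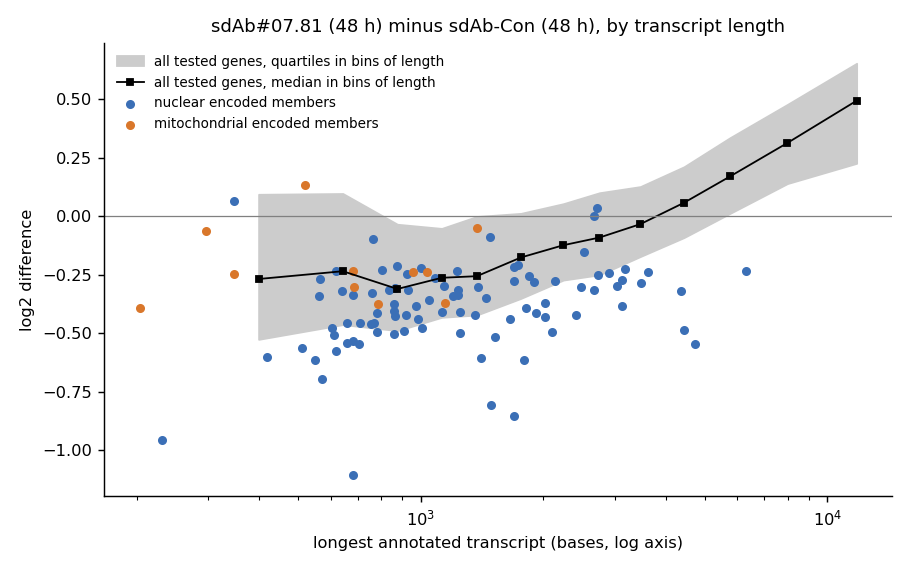
log2 difference at 48 h (sdAb#07.81 minus sdAb-Con) against the length of the longest annotated transcript on a log axis; squares are medians and the grey band the quartiles of all tested genes in bins of length, blue and orange points are nuclear and mitochondrially encoded members. The medians of all genes run from -0.27 in the shortest bin to 0.49 in the longest, and 80 of the 91 nuclear members lie below the median of their bin.

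Between 48 h and 24 h of sdAb#07.81 the members moved both ways. Of the 102 tested, 14 were higher at 48 h and 16 lower (limma), where 21.1% of all genes tested were higher and 22.1% lower, so the share of members called was below the background in both directions. Both 48 h libraries lay above both 24 h libraries in 24 members and below them in 22, against 35.0% and 36.2% of all genes. The median log2 difference was 0.03 over the nuclear members and -0.18 over the 11 mitochondrial ones. Without sdAb#07.81 (48 h) library 1 these medians were 0.18 and -0.57. Without sdAb#07.81 (48 h) library 2 they were -0.14 and 0.11, so both signs turned. With the trend on length and GC content removed they were -0.11 and -0.37. All 14 rises were nuclear, 9 of them in complex I, 1 among its assembly factors, 2 in complex III and 2 in complex IV. The falls were 13 nuclear and 3 mitochondrial members (with Ndufa4 in complex IV, 2 nuclear falls in complex I and 4 in complex IV), with 4 falls and 0 rises among the 17 nuclear genes of complex V. In complex I the median was 0.11 over the nuclear and -0.34 over the mitochondrial genes. With the trend on length and GC content removed, both medians of complex I were below 0, at -0.05 and -0.52. The rises numbered 6 without sdAb#07.81 (48 h) library 2 and 9 without sdAb#07.81 (24 h) library 1, and the falls 5 without sdAb#07.81 (48 h) library 1. With the trend on length and GC content removed there were 8 rises and 24 falls, where 20.8% of all genes rose and 24.8% fell.

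Cox7a2l, which helps to join complexes III and IV into supercomplexes (chromosome 17, 83809347 to 83824759 on the minus strand, in the tables' coordinates), had 2256 and 2107 normalised reads at 24 h and 4632 and 5576 at 48 h (log2 difference 1.22 ± 0.12, adjusted p = 1.48e-07). With sdAb-Con (48 h) it had 7292 and 6265. The 24 h libraries thus lay lowest and the control libraries highest, with no overlap. Cox6a2, with 1 read in each 24 h library as given above, passed the filter on low reads only through the 48 h groups. Its fitted log2 difference, 4.03, ran from 1.15 to 4.13 over the alternatives and was lowest with a pseudocount of 1 CPM, so the ratio of reads given above is the better measure.

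In complex I, Ndufa6, an accessory subunit of the matrix arm (chromosome 15, 82234341 to 82238523), had 492 and 443 normalised reads at 24 h and 868 and 1146 at 48 h (1.09 ± 0.15, adjusted p = 1.04e-05). Ndufb10, a membrane arm subunit (chromosome 17, 24941034 to 24943452), had 431 and 539 at 24 h and 860 and 989 at 48 h (0.93 ± 0.14, adjusted p = 2.63e-05). Both genes were about as high or higher with sdAb-Con (48 h), at 1330 and 1128 for Ndufa6 and 1187 and 1107 for Ndufb10. Ndufaf5, an assembly factor, rose by 0.63 ± 0.18 (adjusted p = 0.00766). In complex III, Uqcrh, the hinge protein that binds cytochrome c1, had 1423 and 1725 at 24 h and 2071 and 2433 at 48 h (0.52 ± 0.14, adjusted p = 0.00489). Uqcrc2, a core protein of the complex, was higher by 0.30 ± 0.11 (adjusted p = 0.0394). Without sdAb#07.81 (48 h) library 2 the calls of Uqcrh (adjusted p = 0.0597), Uqcrc2 (0.341) and Ndufb9, which had 0.49 over time, (0.0798) were lost, and without 24 h library 1 that of Ndufaf5 (0.12). Uqcrc2 was also lost without either 24 h library, at adjusted p = 0.145 and 0.055, and with the trend on length and GC content removed (0.18, adjusted p = 0.146), and was past the threshold in 9 of 14 alternatives. Cox7a2l, Ndufa6 and Ndufb10 kept theirs under all alternatives that tested them.

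Other subunits of the same complexes fell. Uqcr11, a small subunit of complex III, had 361 and 388 normalised reads at 24 h and 173 and 261 at 48 h (-0.82 ± 0.18, adjusted p = 0.00111), and Ndufa1, an X-linked subunit of complex I, fell by 0.71 on the log2 scale (SE 0.20, adjusted p = 0.00692). Atp5g3, one of the genes for the c ring of the ATP synthase, had 1700 and 2167 at 24 h and 1025 and 1340 at 48 h (-0.71 ± 0.14, adjusted p = 0.000356). The groups of these genes did not overlap. Atp5j2 (-0.60 ± 0.14, adjusted p = 0.0019), Cox6c (-0.57 ± 0.13, adjusted p = 0.00212), Cox5b (-0.53 ± 0.13, adjusted p = 0.00349), Ndufaf4 (-0.52 ± 0.18, adjusted p = 0.0271) and Ndufa4 (-0.44 ± 0.13, adjusted p = 0.00894) fell as well. Nuclear members were lower in sdAb#07.81 (48 h) library 1 than in library 2. Without that library 1 the falls were smaller, at -0.52 for Uqcr11, -0.36 for Ndufa1, -0.37 for Atp5j2 and -0.34 for Cox6c. They were -0.35 for Cox5b, -0.46 for Ndufaf4 and -0.24 for Ndufa4. The calls of these genes were lost there, and that of Atp5g3 was kept. Ndufaf4 also lost its call without sdAb#07.81 (48 h) library 2 (-0.58) and without 24 h library 2 (-0.21). Complex II had no call, with values from -0.15 for Sdhd to 0.14 for Sdhb and adjusted p from 0.364 to 0.955. Cycs (-0.39 ± 0.17, adjusted p = 0.0718) and Cyc1 (-0.26 ± 0.15, adjusted p = 0.159) were not called.

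Of the 11 mitochondrial members tested 3 were lower and 0 higher at 48 h than at 24 h of sdAb#07.81, and the share that was lower was near the 22.1% of all genes. mt-Nd1 (MT:2751-3707) had 49709 and 46745 normalised reads at 24 h and 28992 and 24492 at 48 h (-0.86 ± 0.12, adjusted p = 1.81e-05). mt-Cytb (MT:14145-15288) had 75412 and 65085 at 24 h and 44584 and 35471 at 48 h (-0.82 ± 0.13, adjusted p = 4.36e-05). mt-Nd2 had 41243 and 35284 at 24 h and 32126 and 23791 at 48 h (-0.46 ± 0.14, adjusted p = 0.0116). The 24 h libraries lay above the 48 h libraries for all 3 genes. mt-Nd4, from the same strand, did not follow, with 28458 and 24181 at 24 h and 32466 and 23192 at 48 h (0.06 ± 0.14, adjusted p = 0.728). mt-Atp6 (0.27), mt-Co3 (0.08), mt-Co2 (-0.05), mt-Atp8 (-0.08), mt-Nd6 (-0.18), mt-Nd4l (-0.22) and mt-Nd3 (-0.52) were not called, with adjusted p from 0.0847 to 0.801. The 3 genes called were among the 5 tested whose words were shared by less than 50%, which had a median of -0.46, while the 6 with more shared words had a median of 0.01 and no call. mt-Nd2 lost its call without sdAb#07.81 (48 h) library 2 (-0.25) and without 24 h library 1 (-0.36). mt-Nd1 and mt-Cytb stayed past the threshold under all alternatives run, but each of these used the same set of whole numbers. Other sets, described below, were not refitted, so whether the calls depend on that choice was not tested.

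Both ribosomal RNAs of the mitochondrial genome were higher at 48 h than at 24 h of sdAb#07.81, where 21.1% of all genes were called higher. mt-Rnr1, the 12S rRNA, had 6751 and 5582 reads (before scaling) at 24 h and 9601 and 8932 at 48 h with sdAb#07.81 (0.78 ± 0.13, adjusted p = 6.66e-05), and mt-Rnr2, the 16S rRNA, rose by 0.39 ± 0.12 (adjusted p = 0.0107). Neither was called between the antibodies at 48 h (adjusted p = 0.107 and 0.579).

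The reads of very abundant genes could be divided among the libraries less surely. Where several sets of whole numbers gave both means, the set whose 2 libraries per group lay closest was taken, which narrows the spread of those genes. A second set for mt-Cytb gave log2 ratios of group means of -0.74 for 48 h against 24 h and -0.28 for sdAb#07.81 against sdAb-Con, and another -1.17 and -0.77, beside -0.81 and -0.37 for the one used. For mt-Nd1 the second set gave -0.74 and -0.11, beside -0.85 and -0.24, so the ratio over time was below 0 in both. For mt-Nd2 it gave -0.34 over time, beside -0.45, and for mt-Nd4 0.10 against sdAb-Con, beside -0.03. mt-Nd5 had 2 sets that could not be told apart, with ratios of 0.34 or 0.23 against sdAb-Con and -0.0034 or -0.096 against 24 h. For mt-Co1 only the difference of the authors' means can be read. On the scale of the table against sdAb-Con, sdAb-Con (48 h) stood 118637 normalised reads above sdAb#07.81 (24 h), with no error and no split of the 48 h groups.

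**Figure D4:**
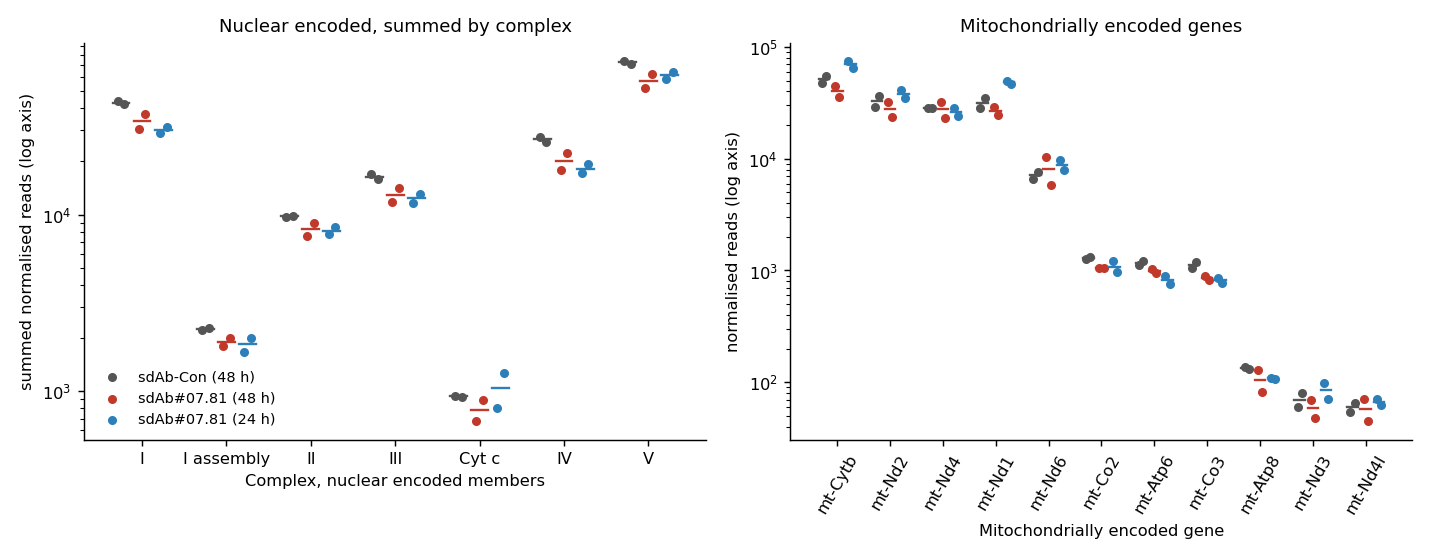
Normalised reads on log axes, on the left summed over the tested nuclear members of each complex and on the right for the 11 tested mitochondrial members; each point is a library, bars are group means, and grey, red and blue are the control antibody, sdAb#07.81 for 48 h, and sdAb#07.81 for 24 h. In every nuclear complex both sdAb-Con libraries lie above both sdAb#07.81 (48 h) libraries, and mt-Cytb and mt-Nd1 are highest at 24 h.

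The control antibody at 48 h and sdAb#07.81 at 24 h differ in antibody and in time at once, and share their libraries with the comparisons above, so their values are given beside those only. Of the 102 members 55 were higher with sdAb-Con (48 h) and 4 lower (limma), where 25.3% of all genes tested were higher and 26.1% lower. Both sdAb-Con libraries lay above both 24 h libraries in 69 members and below them in 9, against 37.3% and 37.5% of all genes. The median log2 difference was 0.43 over the nuclear members, 0.49 in complex I, 0.47 in complex IV, 0.35 in complex III, 0.29 in complex II and 0.25 in complex V. With the trend on length and GC content removed, the nuclear median was 0.13. By complex it was then 0.20 in I, 0.12 in IV, 0.09 in III, 0.13 in II and 0.10 in V. sdAb-Con (48 h) had the highest group mean in 74 of the 91 nuclear members, against 34.3% of all genes. Of the 11 mitochondrial members sdAb-Con (48 h) was highest in 5 and sdAb#07.81 (24 h) in 6. Short transcripts moved with this comparison too (rho -0.327 over 13795 genes), and with the trend on length and GC content removed 29 members were higher (28.4%) and 11 lower (10.8%), against 24% and 25.2% of all genes, so the share that was higher was near the background.

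**Figure D5:**
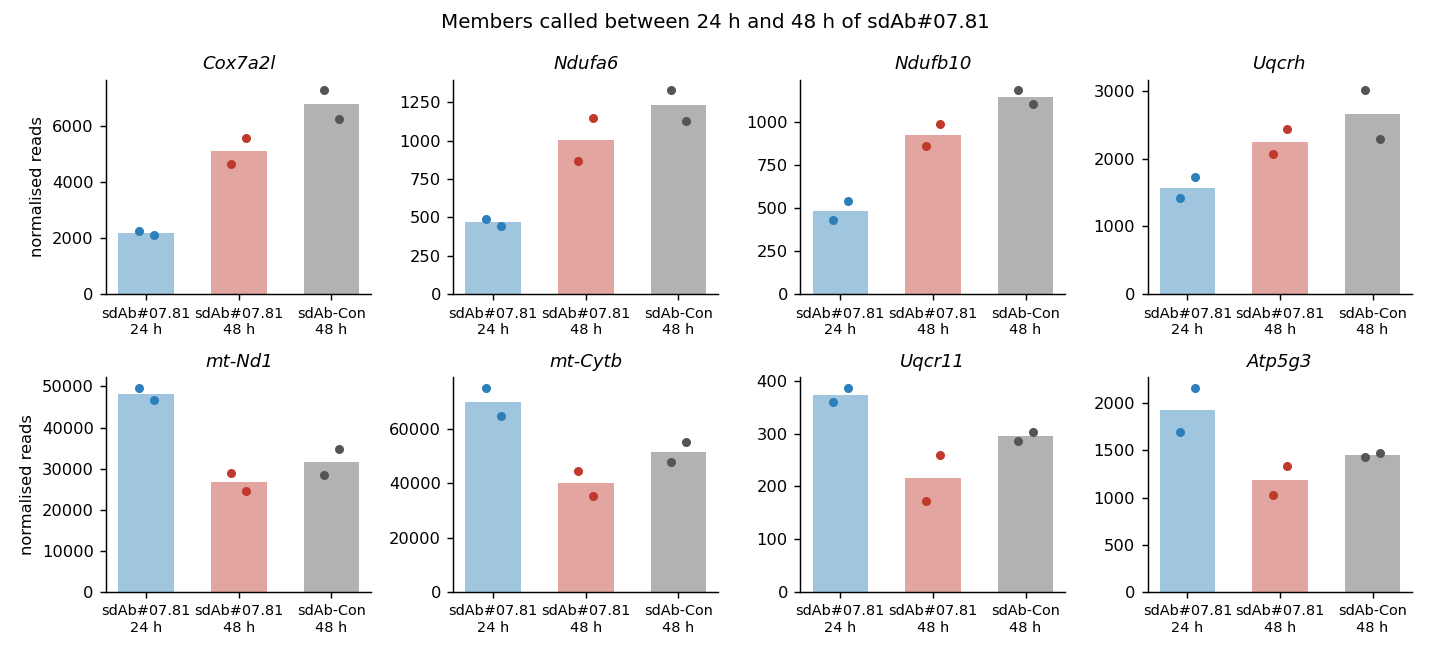
Normalised reads of 8 members in each library, for 24 h and 48 h of sdAb#07.81 and for sdAb-Con; points are libraries and bars, from 0, their means. Cox7a2l, Ndufa6, Ndufb10 and Uqcrh are lowest at 24 h, while mt-Nd1, mt-Cytb, Uqcr11 and Atp5g3 are highest there.

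Genes that regulate or assemble the chain, but are no members, were read from fixed lists. Of 18 tested genes for regulation and mitochondrial DNA expression, 0 were called between the antibodies at 48 h by limma (6.41% of all genes were higher and 3.71% lower). Between 24 h and 48 h of sdAb#07.81, 1 rose and 7 fell, where 21.1% of all genes were higher and 22.1% lower. Lrpprc, which stabilises mitochondrial messengers, had 2468 and 2472 reads at 24 h and 957 and 966 at 48 h (-1.17 ± 0.11, adjusted p = 1.18e-07). Pprc1, a coactivator of NRF1 (-1.07 ± 0.15, adjusted p = 1.95e-05), Nrf1 (-0.55 ± 0.14, adjusted p = 0.00334), Gabpa (-0.32 ± 0.11, adjusted p = 0.0246) and Tfam, which packages mitochondrial DNA (-0.36 ± 0.11, adjusted p = 0.0158), fell too. Tfb1m, a methyltransferase of the 12S rRNA, was the gene that rose (1.04 ± 0.15, adjusted p = 2.3e-05). Ppargc1a, the gene of the coactivator PGC-1alpha, had 1 to 19 reads per library and was not tested.

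Of 29 tested assembly factors of complexes II to V and I, 3 were lower and 0 higher with sdAb#07.81 than with sdAb-Con at 48 h, where 3.71% of all genes were lower and 6.41% higher. Of the 29 values 28 were negative, with a median of -0.21, and all genes with transcripts under 1500 bases had a median of -0.26. The latter are not a matched set, since the lengths of the 29 genes were not compared with theirs. Those called were Uqcc2 of complex III (-0.59 ± 0.14, adjusted p = 0.00937), Cox14 of complex IV (-0.63 ± 0.18, adjusted p = 0.0343) and Bcs1l, which inserts the Rieske protein (-0.46 ± 0.14, adjusted p = 0.0445). Unlike the named members, the assembly and regulation genes are given here without the alternatives. Over time 8 of the 29 assembly factors rose and 2 fell, against 21.1% and 22.1% of all genes, so the share that rose was near the background. Sdhaf3, an assembly factor of complex II, had 100 and 116 reads at 24 h and 179 and 222 at 48 h (1.07 ± 0.22, adjusted p = 0.00052).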

How the data were processed

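RNA-seq of 4T1 cells was analysed from 2 tables that the authors deposited. Each gives, per gene, the mean over 4 libraries of counts divided by size factors (a signal, the authors' mean normalised count, printed to 15 digits), beside the authors' own fold changes, standard errors, statistics and p-values for the comparison, which were not used. The submitters' notes name cutadapt 1.9.1, HISAT2 2.0.1 and HTSeq 0.6.1 with a human build, GRCh38.p14, although the gene identifiers are mouse. The build of the tables' coordinates is not given in the sources used here, and nuclear positions are not those of GRCm38. The groups in each table come from its name. The table named for 48 h against the other antibody was taken as sdAb-Con (48 h), the only other group at that time in the labels.

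Whole reads per library were recovered from the means. Genes with a single read give the step of each library, the 2 libraries of sdAb#07.81 (48 h) stand in both tables, and the 6 whole numbers that give both means were enumerated. This gave 28692 of 28712 genes (99.9%), 25639 of them with 1 solution only. The 20 genes left out include very abundant ones, so their share of the reads is larger than their share of the genes. Size factors recomputed from these reads differed by at most 0.027% from the steps. Where several sets of numbers remained (17 genes), the set with the closest libraries was taken, assuming a spread of 10%. The recovery was tested on simulated data and on shifted means, and for means above 20000 reads a wrong set could pass. The libraries carry a group but no replicate number, and library 1 and 2 are only names.

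Genes with a mean of at least 10 reads (13957) were tested with voom and limma 3.58.1 in R 4.3.3, scaled by median of ratios, in 1 fit of 6 libraries with group as the only term. The tests were two-sided with Benjamini-Hochberg adjustment over all genes tested, and an adjusted p under 0.05 was called. The fit was tested on simulated data. Transcript lengths, GC content and shared 100-base words came from GENCODE M21, matched by gene identifier, and promoters from RefSeq.

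The members and gene lists were chosen with earlier results of these data known. Named genes are all mitochondrial members, Sdha to Sdhd, Cyc1, Cycs, the isoform pairs, and in each complex and main comparison the 2 called members furthest from 0 on either side. Alternatives were other scalings, filters, pseudocounts and groups in the fit, leaving out each library, and removing the trend on length and GC content. Intervals cover counting error only.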

Additional observations from a re-analysis of the deposited data

How the results depend on the processing

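No paired analysis was possible because the recovered libraries carry no replicate number. Between sdAb#07.81 and sdAb-Con at 48 h the count of members lower was 26. It was 13 when scaled by the upper quartile, 5 with no filter on low reads, 41 with only the 2 groups compared and 0 with the trend on length and GC content removed, and 1 to 41 when 1 library was left out, with 0 to 1 members higher. All genes called numbered 1413, and 560 with no filter, 2145 with only the 2 groups, 348 with the trend removed, and 223 to 2163 without 1 library. Over time with sdAb#07.81 the members higher were 14, and 9 with no filter, 8 with the trend removed and 6 to 20 without 1 library, and the members lower 16, and 24 with the trend removed and 5 to 21 without 1 library. For sdAb-Con (48 h) against 24 h of the other antibody the members higher were 55, and 29 with the trend removed and 36 to 56 without 1 library, and the members lower 4, and 11 with the trend removed and 1 to 7 without 1 library. The other scalings, pseudocounts and filters kept these counts within 1.5 times. With the median in place of the longest transcript, the median levels per length of nuclear members were 50.4 in complex I, 14.2 in its assembly factors, 100.5 in complex II, 106.3 in complex III, 113.4 in complex IV, 113.9 in complex V and 25.0 for Cycs. With the reads of the main nuclear copy added, an alternative chosen after seeing the data, the mitochondrial medians were 199.7 in complex IV and 177 in complex V. Setting Ndufa4 and Ndufa4l2 in complex IV, chosen likewise, moved no median level. Over time 7 of the 19 named genes called (Cox7a2l, Ndufa6, Ndufb10, Cox6a2, mt-Nd1, mt-Cytb and Atp5g3) stayed past the threshold under every alternative that tested them (Cox6a2 passed the filter on low reads only through the groups where it was high, and its value ran from 1.15 to 4.13), and of the 13 called between the antibodies at 48 h 0 did. In 39 of 1198 values of named genes the sign differed with neither value past the threshold, and no called value changed sign. No fit was run with another set of whole numbers for mt-Nd1 or mt-Cytb. The causes were not tested.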
